A study of Homo sapiens with 4 samples.

Results

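The genes described here are 10 components of the transforming growth factor beta (TGF-beta) pathway, picked by symbol from a table of 11972 protein-coding genes, where each of the 10 stood on 1 row. They are the ligands TGFB1 and TGFB2, the receptors TGFBR1 and TGFBR2, the transducers SMAD2, SMAD3 and SMAD4, and the feedback genes SMAD7, SKIL and PMEPA1. They were chosen with their values in shFTO and shCtrl libraries in view, so the differences between these groups are given as descriptions and carry no test. RNA sequencing was run on 143B, a human osteosarcoma line derived from HOS cells. One group, shFTO (2 libraries), carried a plasmid with a hairpin against FTO, an enzyme that takes methyl groups off adenosines in RNA, and the other, shCtrl (2 libraries), carried a control plasmid. All cells were stable lines kept in serum and puromycin, and the labels do not say how many hairpins or clones were used, nor whether the libraries within a group stem from separate cultures.

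TGF-beta ligands are secreted in a latent form and, once released, bring a type II receptor (TGFBR2) together with a type I receptor (TGFBR1). The type I kinase then phosphorylates SMAD2 and SMAD3, which join SMAD4 and enter the nucleus to control transcription. SMAD7, the SKIL product SnoN and PMEPA1 are induced by the pathway and restrain it at the receptor, at the SMAD complex and at the SMADs themselves. In bone and in osteosarcoma the pathway is known for its roles in matrix production, differentiation and invasion.

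Values are FPKM, fragments scaled to transcript length and to the mapped fragments of the library. Levels of different genes can be compared only as far as the lengths used, which are unknown, suit the transcripts present. The listed genes summed to between 200555 and 212531 FPKM per library, and read depth is unknown. Across genes, log2 values of the shFTO pair correlated at r = 0.964, inside the range between libraries of different groups (0.961 to 0.973), and those of the shCtrl pair at 0.983. FTO was at 0.268 and 0.242 FPKM in the shFTO libraries and at 1.14 and 0.665 FPKM in the shCtrl libraries, with no overlap. Its mean was 3.54-fold lower in shFTO. Its difference, on the log2(FPKM + 1) scale, was -0.59 (SE 0.16) and did not pass over all listed genes (limma adjusted p = 0.313, and 0.127 to 0.969 over the alternatives). The difference was -1.46 with a pseudocount of 0.1, since a pseudocount of 1 compresses so low a gene. With a pseudocount of 1 it was -0.41 without shCtrl replicate 1 and -0.77 without shCtrl replicate 2. Among 6 markers fixed for an osteosarcoma line 5 were listed, and VIM and SPARC were high (253 to 329 and 61.3 to 85.3 FPKM). RUNX2 and ALPL, both osteoblast genes, were below 1 FPKM in all 4 libraries, COL1A1 reached 2.07 FPKM and COL1A2 was not listed. None of 5 endothelial markers was listed. EPCAM was the listed epithelial marker of 5 (2.43 to 4.36 FPKM in shFTO, 4.02 to 4.46 FPKM in shCtrl). LYZ and CD68 were the listed blood cell markers of 5, PTPRC not among them, and their sum was 14.6 and 26.8 FPKM in shFTO against 13.1 to 14.7 FPKM in shCtrl. CD68 made up most of it, at 25.8 FPKM in shFTO replicate 2, and the part of this in any result was not tested.

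Start regions show which SMAD boxes, if any, lie close to the first transcription start listed for a gene. They are printed for TGFBR1, PMEPA1, SKIL and TGFB2, the 4 members with the largest differences over all 4 libraries. TGFBR2 followed closely, and it took the place of SKIL with quantile normalization or without shCtrl replicate 2, and that of TGFB2 without shFTO replicate 1 or shCtrl replicate 1. Each is the first window listed for the gene in RefSeq (GRCh38.p14), from 250 bases before to 50 bases after the start, with the SMAD box CAGAC, or GTCTG where it lies on the other strand, in capitals.
TGFBR1 (chr9:99104863-99105162, plus strand): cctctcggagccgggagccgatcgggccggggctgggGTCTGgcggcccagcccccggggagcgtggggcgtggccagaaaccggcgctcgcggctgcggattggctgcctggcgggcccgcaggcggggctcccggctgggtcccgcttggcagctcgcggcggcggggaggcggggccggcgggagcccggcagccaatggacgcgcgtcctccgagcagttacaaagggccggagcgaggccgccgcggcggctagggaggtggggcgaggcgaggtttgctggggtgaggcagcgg
PMEPA1 (chr20:57711423-57711722, minus strand): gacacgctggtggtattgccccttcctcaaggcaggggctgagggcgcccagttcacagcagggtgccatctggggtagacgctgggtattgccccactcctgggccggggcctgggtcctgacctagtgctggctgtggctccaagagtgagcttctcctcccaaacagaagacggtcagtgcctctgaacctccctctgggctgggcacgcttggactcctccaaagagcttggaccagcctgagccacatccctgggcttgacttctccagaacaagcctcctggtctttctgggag
TGFB2 (chr1:218345086-218345385, plus strand): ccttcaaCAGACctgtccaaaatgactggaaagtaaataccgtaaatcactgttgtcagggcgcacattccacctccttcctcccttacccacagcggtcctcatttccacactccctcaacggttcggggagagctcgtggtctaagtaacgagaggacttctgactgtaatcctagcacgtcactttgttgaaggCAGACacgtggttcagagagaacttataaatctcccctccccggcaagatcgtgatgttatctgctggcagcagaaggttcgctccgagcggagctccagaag
SKIL (chr3:170357465-170357764, plus strand): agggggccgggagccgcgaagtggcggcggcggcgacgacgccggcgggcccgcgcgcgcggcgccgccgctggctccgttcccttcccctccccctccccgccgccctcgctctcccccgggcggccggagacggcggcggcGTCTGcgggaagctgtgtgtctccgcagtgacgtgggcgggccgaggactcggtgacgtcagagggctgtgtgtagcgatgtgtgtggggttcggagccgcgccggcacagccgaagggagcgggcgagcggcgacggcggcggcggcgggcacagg
The TGFB2 window held 2 boxes, those of TGFBR1 and SKIL 1 each and that of PMEPA1 none, although 3 of the 4 PMEPA1 start windows held the box elsewhere. Of the 8 TGFBR1 start windows, 4 held the box. Of all 10 members, 5 had CAGAC on either strand in the first window, and 45.0% of the first windows of 27305 genes had it. The palindromic SMAD element GTCTAGAC was in 0 member windows and in 0.202% of all windows. The AP-1 site TGANTCA, which neither contains these motifs nor lies within them, was in 0 first windows of the members, against 7.76% over all genes, and in 1 further window each of TGFBR2 and SMAD3. These are matches of letters, no binding was measured, and the starts that these cells used are not known.

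The groups did not overlap for 6 of the 10 members, beside 42.6% of all 10873 tested genes. In 5 of them the shFTO libraries were higher (TGFBR1, PMEPA1, SKIL, TGFBR2 and SMAD3), as in 24.6% of tested genes, and in 1 they were lower (TGFB2), as in 18.1%. In bulk RNA fewer expressing cells and less RNA per cell cannot be told apart. In the other 4 (TGFB1, SMAD2, SMAD4 and SMAD7) the groups overlapped. In limma's fit on all 4 libraries 0 of the 10 members passed an adjusted p of 0.05, where 0.0276% of tested genes passed. The contrast chose the members, so nothing is read from these counts, and the limma count is no test of the members. Member calls with 1 library left out are not given, for the same reason. The median difference of the members was 0.42 on the log2(FPKM + 1) scale, beside 0.02 over all tested genes. All 10 passed the filter of at least 1 FPKM in 2 libraries, TGFB2 through its shCtrl libraries alone.

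**Figure D1:**
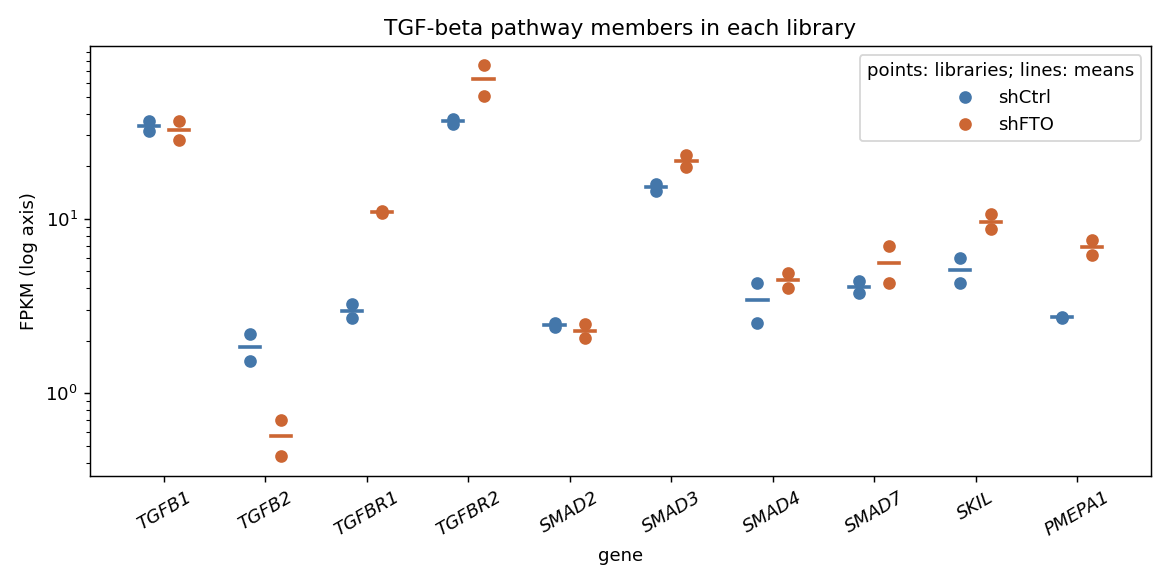
FPKM of the 10 members (log axis) in each library, with lines at the group means (n = 2 libraries each). The 2 shFTO points of TGFBR1, TGFBR2, SMAD3, SKIL and PMEPA1 lie above both shCtrl points, those of TGFB2 lie below, and the points of the other 4 genes overlap.

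Among the ligands, TGFB1 was by far the more abundant transcript and lay at about the same level in both groups. TGFB1 (chr19:41807492-41859816, minus strand, hg19) was at 36.1 and 28.3 FPKM in shFTO and at 31.7 and 36.5 FPKM in shCtrl. The groups overlapped, with a difference of -0.09 on the log2 scale (SE 0.17). This difference took the opposite sign without shFTO replicate 2 (0.083) and without shCtrl replicate 2 (0.011). On the opposite strand the gene overlaps 3 listed genes, HNRNPUL1, CCDC97 and TMEM91. Whether the counting used strand is not stated, so reads from the other strand may be included there.

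TGFB2 (chr1:218519577-218617961, plus strand), the ligand known for roles in development and in autocrine loops of tumour cells, was the member that lay lower. It was at 0.437 and 0.701 FPKM in shFTO and at 2.17 and 1.52 FPKM in shCtrl. Both shFTO libraries were under 1 FPKM and both shCtrl libraries above it. The means were 0.569 ± 0.186 and 1.85 ± 0.46 FPKM (SD, n = 2 each), 3.25-fold lower in shFTO. On the log2(FPKM + 1) scale shFTO minus shCtrl was -0.86 (SE 0.18), and -1.55 with a pseudocount of 0.1, since a pseudocount of 1 compresses so low a gene. TGFB1 exceeded TGFB2 in every library, by a ratio of FPKM of 82.5 and 40.4 in shFTO and of 14.6 and 23.9 in shCtrl. In GENCODE 29 the gene TGFB2-OT1 overlaps TGFB2 on its own strand, so reads there could be divided between them whatever the counting. The third ligand gene, TGFB3, was at 0.365 to 0.614 FPKM over the 4 libraries and was not tested.

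The type I receptor showed the widest separation of the members. TGFBR1 (chr9:101866320-101916474, plus strand) was at 10.7 and 11.1 FPKM in shFTO and at 3.24 and 2.72 FPKM in shCtrl. The libraries of each group lay close together and far from the other group. The means were 10.9 ± 0.27 and 2.98 ± 0.37 FPKM (SD, n = 2 each), 3.67-fold higher in shFTO, and the difference was 1.59 on the log2 scale (SE 0.16). Leaving out 1 library moved it between 1.49 and 1.68. In the authors' deposited table its fold change was 3.01, formed from means of log2(FPKM + 1).

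TGFBR2 (chr3:30647994-30735634, plus strand), the ligand-binding receptor, was the most abundant member in both groups. It was at 50.7 and 75.4 FPKM in shFTO and at 37.1 and 35.0 FPKM in shCtrl. Both shFTO libraries were higher, but they stood further from each other than the shCtrl libraries did. The means were 63.0 ± 17.5 and 36.0 ± 1.52 FPKM (SD, n = 2 each), and the difference of 0.76 on the log2 scale (SE 0.21) fell to 0.48 without shFTO replicate 2 and was 1.05 without shFTO replicate 1. The excess of TGFBR2 over TGFBR1, as a ratio of FPKM, was 4.71 and 6.78 in shFTO and 11.4 and 12.9 in shCtrl. The ratio was thus lower in both shFTO libraries, with type II still the more abundant.

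**Figure D2:**
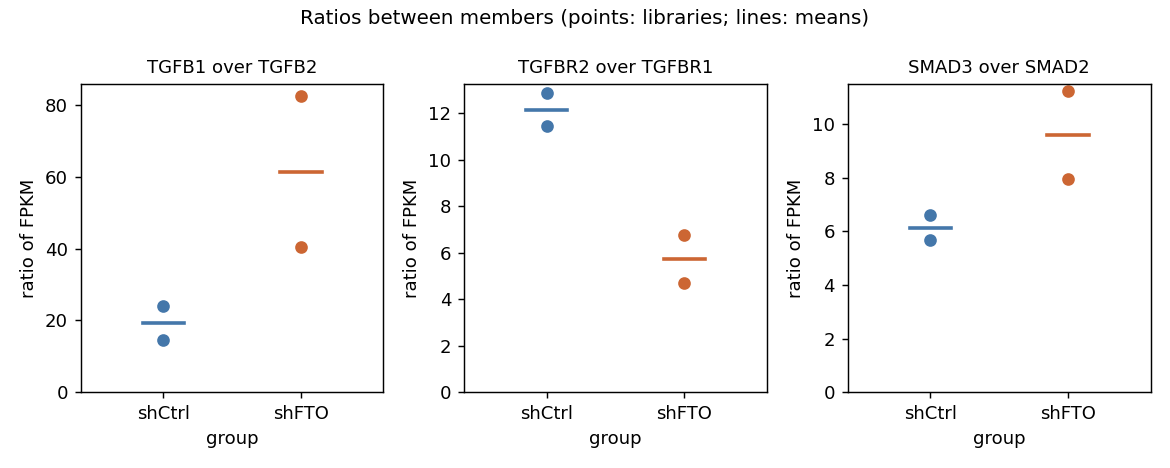
Ratio of FPKM between paired members in each library (points) with group means (lines, n = 2 libraries each), on linear axes from 0. TGFBR2 over TGFBR1 is lower in shFTO (4.71 and 6.78 against 11.4 and 12.9), and the TGFB1 over TGFB2 and SMAD3 over SMAD2 ratios are higher in both shFTO libraries.

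Of the receptor-activated SMADs, SMAD3 was higher in shFTO and SMAD2 was not. SMAD3 (chr15:67356101-67487533, plus strand), which binds DNA directly, was at 19.8 and 23.2 FPKM in shFTO and at 15.9 and 14.3 FPKM in shCtrl. The groups did not overlap, and the means of 21.5 ± 2.39 and 15.1 ± 1.09 FPKM (SD, n = 2 each) differed by 0.48 on the log2 scale (SE 0.15). SMAD2 (chr18:45335328-45457517, minus strand), whose main product does not bind DNA by itself, was at 2.49 and 2.07 FPKM in shFTO and at 2.40 and 2.53 FPKM in shCtrl. These values overlapped, and their difference of -0.08 on the log2 scale (SE 0.16) was 0.011 without shFTO replicate 2. SMAD3 transcripts exceeded those of SMAD2 by a ratio of FPKM of 7.97 and 11.2 in shFTO and of 6.60 and 5.68 in shCtrl.

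SMAD4 (chr18:48554764-48611415, plus strand), the partner shared with bone morphogenetic protein signalling, was at 4.88 and 4.04 FPKM in shFTO and at 4.31 and 2.52 FPKM in shCtrl. The groups overlapped because the shCtrl libraries stood apart from each other. Its difference of 0.33 on the log2 scale (SE 0.24) was 0.04 without shCtrl replicate 2 and 0.63 without shCtrl replicate 1. SMAD2 and SMAD4 also share their strand with overlapping genes in GENCODE 29, among them the mitochondrial pseudogene MTCO2P2 in SMAD2. The summed level of SMAD2, SMAD3 and SMAD4 was 27.2 and 29.3 FPKM in shFTO and at 22.6 and 19.4 FPKM in shCtrl, most of it SMAD3.

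Among the feedback genes PMEPA1 and SKIL were higher in both shFTO libraries, and SMAD7 overlapped. PMEPA1 (chr20:56223448-56286592, minus strand), whose membrane protein sequesters SMAD2 and SMAD3, was at 7.52 and 6.18 FPKM in shFTO and at 2.71 and 2.75 FPKM in shCtrl. The shCtrl libraries were nearly equal and both shFTO libraries lay well above them. The means were 6.85 ± 0.95 and 2.73 ± 0.03 FPKM (SD, n = 2 each), 2.51-fold higher in shFTO, with a difference of 1.07 on the log2 scale (SE 0.17). In GENCODE 29 the long noncoding gene NKILA, an inhibitor of NF-kB signalling, overlaps PMEPA1 on the opposite strand. Whether the counting used strand is not stated, so NKILA reads may be included where the genes overlap.

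SKIL (chr3:170075466-170114623, plus strand), which encodes the corepressor SnoN, was at 8.68 and 10.6 FPKM in shFTO and at 5.93 and 4.28 FPKM in shCtrl. Both shFTO libraries were higher. The means were 9.63 ± 1.35 and 5.10 ± 1.17 FPKM (SD, n = 2 each), 1.89-fold higher in shFTO, with a difference of 0.81 on the log2 scale (SE 0.20). SMAD7 (chr18:46446223-46477081, minus strand), the inhibitory SMAD that recruits ubiquitin ligases to the receptor, was at 6.95 and 4.29 FPKM in shFTO and at 3.78 and 4.38 FPKM in shCtrl. One shFTO library was above both shCtrl libraries and the other lay between them. Its difference of 0.35 on the log2 scale (SE 0.24) became 0.06 with shFTO replicate 1 left out and was 0.65 with shFTO replicate 2 left out.

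**Figure D3:**
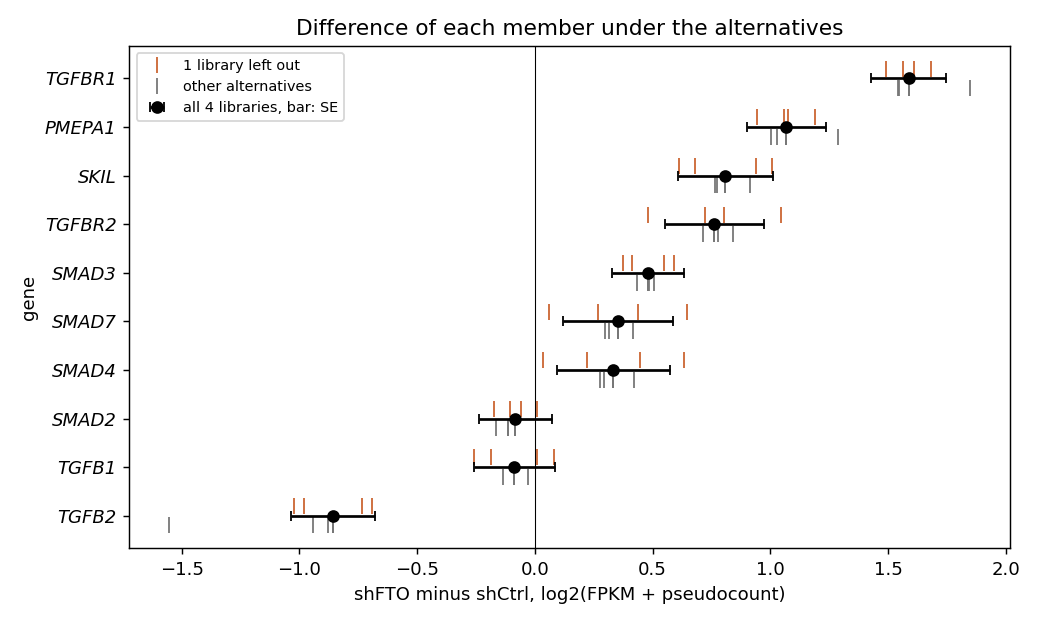
Difference of each member, shFTO minus shCtrl, on the log2 scale with its SE (black), with each library left out in turn (orange) and under the other alternatives (grey). TGFBR1 stays between 1.49 and 1.85 and TGFB2 between -1.55 and -0.69, whereas TGFB1 and SMAD2 cross 0 when 1 library is left out.

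Ordered by mean level in shCtrl, TGFBR2 and TGFB1 came first, and their library ranges overlapped. SMAD3 followed, apart from its neighbours. SKIL, SMAD7 and SMAD4 came next with overlapping neighbours, then TGFBR1, PMEPA1 and SMAD2 within 2.40 to 3.24 FPKM, and TGFB2 was last. SMAD4 spanned TGFBR1 and PMEPA1, while the ranges of PMEPA1 and SMAD2 did not overlap. In shFTO TGFBR1 stood at place 4 of 10, from place 7 in shCtrl, just above SKIL and with no overlap of their libraries. TGFBR2, TGFB1 and SMAD3 kept places 1, 2 and 3, and TGFB2 kept place 10. In shCtrl the means lay between the 22.3rd percentile of all listed genes (TGFB2) and the 91.5th (TGFBR2).

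The genes with profiles most like TGFBR1 over the 4 libraries, by Euclidean distance between centred log2(FPKM + 1) values among 10863 other tested genes, were UNC13A (0.07), RNF4 (0.14) and FZD6 (0.19). For TGFB2 they were ZNF619 (0.04), ZNF672 (0.08) and MID1 (0.08). ZNF619 was at 0.604 and 0.834 FPKM in shFTO and at 2.47 and 1.81 FPKM in shCtrl. With 4 libraries such closeness describes these values and no more.

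Because the study concerns an RNA demethylase, the letters GGACT, the form in which N6-methyladenosine is most often found in mRNA, were counted in the longest coding transcript of each gene in GENCODE 29. Methylation itself was not measured in these libraries. TGFB2 had 1 match (0.198 per kilobase), PMEPA1 2 (0.413), SKIL 3 (0.418) and TGFBR1 3 (0.460). These densities lay at the 8.52, 15.8, 16.1 and 18.5 percentiles of 11864 matched genes, whose median was 0.924 per kilobase. SMAD3 (0.640), SMAD2 (0.811), SMAD7 (0.903), TGFBR2 (1.08) and SMAD4 (1.14) were nearer the median, and TGFB1 was the densest member (1.44, percentile 77.9). No relation between density and difference was tested. The transcripts counted may not be those the cells used.

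The rest of the pathway was described with 83 genes in 5 lists, drawn from general knowledge of the pathway with earlier results of these data known. Of these, 71 were in the table and 69 were tested. In limma's fit 0 of the 69 passed an adjusted p of 0.05, and 13 were higher and 3 lower at an unadjusted p under 0.05, which 7.11% and 3.74% of all tested genes reached in these directions. The groups did not overlap for 27 higher (39.1%) and 10 lower (14.5%), beside 24.6% and 18.1% of all tested genes. With median-ratio scaling 24 were higher and 17 lower, beside 20.6% and 22.6% of all genes, and with quantile normalization 29 were higher and 15 lower, beside 20.9% each way. The median difference was 0.16 on the log2 scale. A target gene among the 27 passed the filter through its shFTO libraries alone. With shFTO replicate 1 left out 13 of the 69 passed, 8 higher and 5 lower, and with shFTO replicate 2 left out 7 passed, 4 higher and 3 lower, in fits that take the spread of the single shFTO library from the shCtrl libraries and that called 429 and 217 of all 10873 genes. FN1, CTGF and BHLHE40 passed in both of these fits. INHBA, FSTL3, TAGLN and PPM1A passed without shFTO replicate 1 and FKBP1A without shFTO replicate 2. With shCtrl replicate 1 or replicate 2 left out 0 passed.

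Target genes had the largest share of separated genes among the 5 lists. Of 26 tested, 14 lay higher (53.8%) and 5 lower (19.2%) with no overlap, beside 24.6% and 18.1% of all tested genes. The median difference was 0.36 on the log2 scale. This list was drawn up with earlier results of these data known, so the shares are descriptions only. A gene among the 14 passed the filter through its shFTO libraries alone. FN1, which encodes the matrix protein fibronectin, was at 43.0 and 89.0 FPKM in shFTO and at 12.3 and 9.20 FPKM in shCtrl, a difference of 2.43 (SE 0.35, limma adjusted p = 0.141). BHLHE40, a transcriptional repressor, was at 21.1 and 18.2 FPKM against 7.88 and 6.85 FPKM, a difference of 1.30 (SE 0.16, limma adjusted p = 0.104). Both genes had every shFTO library above every shCtrl library.

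Other targets lay in the opposite direction. CTGF, a matricellular protein gene that also answers to YAP, was at 146 and 149 FPKM in shFTO and at 250 and 246 FPKM in shCtrl. Its libraries agreed closely within each group, with a difference of -0.75 (SE 0.12, limma adjusted p = 0.159). TAGLN, a contractile cytoskeleton gene, was at 12.9 and 1.998 FPKM in shFTO and at 14.7 and 16.5 FPKM in shCtrl. Its difference of -1.36 (SE 0.67, limma adjusted p = 0.528) came mostly from shFTO replicate 2.

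Genes of ligand latency and activation, 14 tested, had 6 higher (42.9%, beside 24.6% of all genes) and 1 lower (7.1%, beside 18.1%) with no overlap, and a median difference of 0.20. INHBA, a subunit gene of activins, was at 2.60 and 10.4 FPKM in shFTO and at 1.16 and 1.02 FPKM in shCtrl (difference 1.61, SE 0.51, limma adjusted p = 0.371). LTBP2, an extracellular matrix protein of the latent TGF-beta binding protein family, was at 7.80 and 8.79 against 4.84 and 4.38 FPKM (difference 0.73, SE 0.16, limma adjusted p = 0.253). FSTL3, a secreted inhibitor of activins, was lower in both shFTO libraries, at 5.63 and 1.32 against 5.76 and 8.63 FPKM, with limma adjusted p = 0.515. The separation of FSTL3 was narrow, since shFTO replicate 1 nearly touched the lower shCtrl library (difference -1.04, SE 0.49). The shFTO libraries of INHBA and FSTL3 stood far apart from each other.

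The other receptors differed less than TGFBR1. Of 7 tested, 2 were higher (28.6%) and 1 lower (14.3%) with no overlap, shares near the 24.6% and 18.1% of all genes, with a median difference of 0.05. ACVR2B, a type II receptor of activins, was at 3.29 and 3.12 FPKM in shFTO and at 2.37 and 2.02 FPKM in shCtrl, and the type I receptor gene ACVR1 was at 8.16 and 9.69 against 6.82 and 7.01 FPKM. The co-receptor ENG was at 9.97 and 8.99 against 13.4 and 11.6 FPKM. Their differences were 0.40, 0.32 and -0.36 on the log2 scale, with limma adjusted p from 0.456 to 0.532.

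Inhibitors and turnover genes, 11 tested, had 3 higher (27.3%, near the 24.6% of all genes) and 1 lower (9.1%, beside 18.1%) with no overlap, and a median difference of 0.17. FKBP1A, whose product FKBP12 binds the type I receptor and holds it inactive, was at 58.8 and 21.5 FPKM in shFTO and at 17.9 and 21.4 FPKM in shCtrl. Its separation rested on shFTO replicate 1, since replicate 2 nearly touched the higher shCtrl library (difference 0.83, SE 0.44, limma adjusted p = 0.555). PPM1A, a phosphatase that acts on SMAD2 and SMAD3, was at 4.68 and 7.27 against 2.46 and 3.34 FPKM (difference 0.82, SE 0.24, limma adjusted p = 0.342). NEDD4L, a ubiquitin ligase that turns over activated SMADs, was at 4.70 and 4.48 against 8.10 and 8.47 FPKM (difference -0.73, SE 0.15, limma adjusted p = 0.225).

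SMAD partners, 11 tested, had 2 higher and 2 lower with no overlap (18.2% each, beside 24.6% and 18.1% of all genes) and a median difference of -0.02. ZFYVE9, the anchor that presents SMADs to the receptor, was at 8.43 and 12.9 FPKM in shFTO and at 7.37 and 6.58 FPKM in shCtrl (difference 0.52, limma adjusted p = 0.472). The endosomal adaptor gene HGS was at 16.0 and 14.7 against 10.6 and 13.1 FPKM. The deubiquitinase genes USP15 and USP9X were lower by less, with differences of -0.21 and -0.16 and limma adjusted p of 0.658 and 0.776. USP9X was at 5.443 and 5.325 FPKM in shFTO and at 6.850 and 5.447 FPKM in shCtrl. Its separation was narrow, since shFTO replicate 1 nearly touched the lower shCtrl library.

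**Figure D4:**
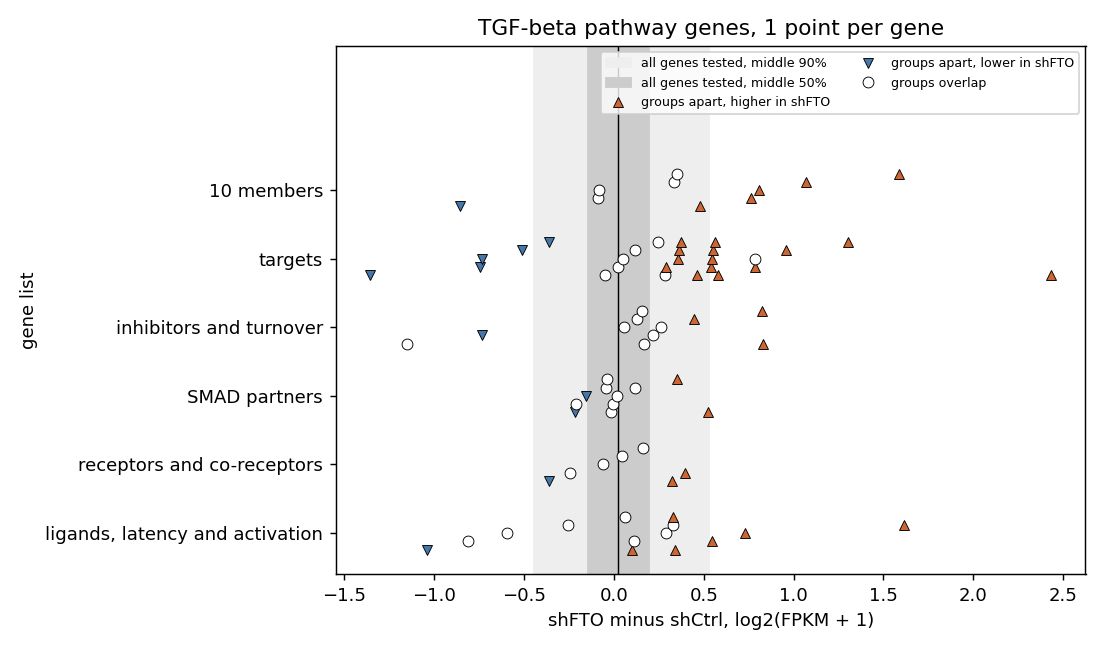
Difference of each tested pathway gene and of the 10 members, shFTO minus shCtrl on the log2(FPKM + 1) scale, by list. Triangles mark genes whose groups do not overlap, circles those that do, shading the middle 50% and 90% of all 10873 tested genes, and the line their median of 0.02. Targets spread from -1.36 (TAGLN) to 2.43 (FN1).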

How the data were processed

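Poly(A)-selected RNA was sequenced on an Illumina HiSeq instrument from libraries whose second cDNA strand held dUTP, per the labels' protocols. Tools listed in the submitters' processing notes are STAR 2.5.2b, HISAT2 2.0.5, StringTie and cutadapt, with the build hg19. The role of each tool and the use of strand in counting are not given in the sources used here.

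Per the file headers, FPKM were deposited for each library. The authors' deposited group columns are means of log2(FPKM + 1), and their deposited log2 fold change and linear fold change follow from them, as recomputed. The authors' deposited p-values and q-values were not used. FPKM hold no counts. Among 72 genes under 0.6 FPKM in all libraries at most 2 shared a ratio between the shCtrl libraries, so whole reads were not recovered.

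Differences came from limma 3.58.1 (R 4.3.3) on log2(FPKM + 1) with a mean-variance trend, over genes that reached 1 FPKM in 2 or more libraries, with Benjamini-Hochberg adjustment over all 10873. FTO came from the same fit over 11972 genes. The method was tried on simulated data whose changes were larger than the difference of any member. That trial does not show how well differences of the members' size would be found. P-values set each difference against the spread between libraries, which may be technical and which limma draws toward the spread of other genes. An exact test of 2 against 2 libraries cannot go below 0.333. The members and lists were chosen with earlier results of these data known. Beside the members and FTO, the genes named are those of each list with the largest differences without overlap (up to 2 each way). Also named are the nearest profiles to TGFBR1 and TGFB2, TGFB3 for its role, the cell markers, and genes whose position overlaps a member. The lists hold 1 gene that is not reported here by name. Promoter windows came from RefSeq and transcripts from GENCODE 29, where 99.1% of genes matched. Alternatives covered pseudocount, filter, scaling, trend, blocks and left-out libraries.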

Additional observations from a re-analysis of the deposited data

How the results depend on the processing

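All 10 members kept the direction of their difference under every alternative that could give a value, except TGFB1 and SMAD2. When 1 library was left out, TGFB1 ran from -0.26 to 0.083 (0.011 without shCtrl replicate 2) and SMAD2 from -0.18 to 0.011 on the log2 scale. The cause was not tested. A filter at a mean of 5 FPKM left out TGFB2, SMAD2, SMAD4, SMAD7 and PMEPA1, which have no value there. The number of members whose groups did not overlap was 7 to 9 when 1 library was left out, which makes overlap less likely by construction. FTO kept its direction (-0.77 to -0.41 with 1 library left out, and -1.46 with a pseudocount of 0.1). Over all genes limma called 3 in the main analysis, 0 with a pseudocount of 0.1 (1167 at unadjusted p under 0.05), and 1 each with no filter, quantile normalization, median-ratio scaling or no trend. With 1 library left out it called 0 (without shCtrl replicate 1 or 2) to 429 (without shFTO replicate 1). Of the 69 pathway genes outside the members it called 0 to 13 then, and the separated genes were 30 to 43 higher and 13 to 21 lower. With median-ratio scaling 17 pathway genes were separated and lower, against 10. No scaling moved the median of all genes by 0.1 on the log2 scale.

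Replicate numbers are shared between the groups but nothing says that they pair libraries, and the deviations of same-numbered libraries correlated at -0.19. With the replicate number as a block 15 genes were called, 1 of them a pathway gene (FN1). With crossed pairing, an alternative chosen after seeing the data, 0 were called (1430 at unadjusted p under 0.05). Read depth is unknown, so the counting error of low members such as TGFB2 cannot be given.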
